A study of Mus musculus with 18 samples.

Results

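A set of 192 probes had a higher signal in Oct4 VP2 cells than in both companion lines at every time measured, out of the 25030 probes in the value table that the authors deposited. The probes were chosen by the measured values themselves. On the log2 scale, the mean of the 2 Oct4 VP2 arrays had to lie at least 1 above the mean of the 2 Oct4 arrays and at least 1 above the mean of the 2 ZHBTc4 arrays at each of 3 times. These 6 differences are therefore a description of the choice and were not tested.

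Oct4 is a transcription factor needed to keep embryonic stem cells undifferentiated, and it can both activate and repress its target genes. VP16 is a viral protein whose activation domain, joined to a DNA-binding protein, strongly drives transcription from the genes that protein binds. LIF is a cytokine added to mouse embryonic stem cell cultures, which differentiate once it is withdrawn.

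The measurements came from 18 arrays of mouse embryonic stem cells of strain 129/Ola, in 9 groups of 2. Each array held 60-base probes and was hybridised with the RNA of 1 culture, labelled with Cy3, and with a common mouse reference RNA pooled from 11 cell lines, labelled with Cy5. Oct4 VP2 cells were made from ZHBTc4 by electroporating an oct4-vp16 construct that integrated at random. They were kept under puromycin (2 ug/ml) and tetracycline, which shuts off the regulatable oct4 transgene of the parent line. Oct4 cells were also derived from ZHBTc4, and those without LIF are labelled as random integration under tetracycline and the same puromycin dose. The Oct4 cultures with LIF are labelled as a gene knock-in instead, with neither agent named. ZHBTc4 is the parent, itself a knock-in, and no tetracycline is named for it. Cultures were sampled 24 h after plating with LIF, or 48 h and 120 h into culture without it, so that a change without LIF is also a change in time. Oct4 VP2 flasks received 250000 cells and the others 200000. Replicates are independent clones of each line, per the series description, but the labels do not say which clone each array holds.

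Nothing in the files ties a probe to a gene. None (0) of the 192 identifiers is in the mouse gene table that was searched. No run of 24 bases from any of the probes was found in the 32851 RefSeq promoter windows and 2743 miRNA sequences searched (build GRCm38.p6). The probes are therefore named by their array identifiers. Neither the Oct4 transgenes nor markers of embryonic stem cells or of other cell types could be examined, so the labelled cell type was not checked.

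The probe sequences below, as deposited and written 5′ to 3′, are those of the members on which the results turn. The first pair had the largest excess in Oct4 VP2 cells.
Z00043435-1: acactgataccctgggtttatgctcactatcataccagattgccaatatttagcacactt
Z00056842-1: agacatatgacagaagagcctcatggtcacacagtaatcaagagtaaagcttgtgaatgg
The next rose in Oct4 VP2 cells without LIF.
Z00025537-1: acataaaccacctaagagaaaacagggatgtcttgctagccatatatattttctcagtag
The following probes fell much further in a companion line than in Oct4 VP2 cells.
Z00070258-1: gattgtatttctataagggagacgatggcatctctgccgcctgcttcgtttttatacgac
Z00024877-1: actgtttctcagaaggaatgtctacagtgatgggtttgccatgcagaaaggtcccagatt
Z00016667-1: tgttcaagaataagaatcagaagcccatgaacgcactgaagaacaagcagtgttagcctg
The last 3 share a run of 20 bases, shown in capitals, and were chosen after their values were seen.
Z00033919-1: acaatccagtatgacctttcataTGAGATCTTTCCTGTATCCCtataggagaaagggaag
Z00034075-1: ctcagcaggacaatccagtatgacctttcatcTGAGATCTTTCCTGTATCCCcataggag
Z00070676-1: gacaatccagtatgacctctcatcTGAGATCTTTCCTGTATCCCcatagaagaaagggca

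Most members stood only a little above the threshold. For each member the smallest of its 6 differences in the value table was taken, and the median of these was 1.36. It was under 1.5 for 118 members, at least 2 for 35 and at least 3 for 12, and reached 4.45. The 4 members just inside the threshold had smallest differences of 1.01, 1.01, 1.01 and 1.00. The 4 probes just outside it had 0.995, 0.994, 0.993 and 0.991, so nothing separates members from probes at the border. The smallest difference fell most often with LIF, against ZHBTc4 for 67 members and against Oct4 for 44.

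In the value table the median excess of Oct4 VP2 over Oct4 was 2.14 with LIF at 24 h, 2.35 at 48 h and 2.81 at 120 h without LIF. Over ZHBTc4 it was 1.73, 2.53 and 2.34 at the same times. Across all probes of the table these medians lay between -0.03 and 0.02. The single largest difference was 8.99, between Oct4 VP2 and Oct4 at 120 h.

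The arrays of Oct4 VP2 stood above all 4 arrays of the other lines at their time in 186 members at 24 h, 188 at 48 h and 187 at 120 h, beside backgrounds of 20.1%, 18.6% and 20.2% of all probes. They did so at each of the 3 times in 182 of 192 members. Among all 25030 probes, 1073 did so, a background of 4.29%, and since the rule used these differences nothing is read from the members' counts. Comparing across times as well, the lowest of the 6 Oct4 VP2 arrays lay above the highest of the 12 other arrays in 115 members, beside a background of 1.53% of all probes, and the rule bears on this count too. In the other members, arrays of Oct4 VP2 at one time overlapped those of another line at some time.

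Many members were dim outside Oct4 VP2 cells, which bears on how large their differences can be said to be. The scanner software called 181, 180 and 178 members well above background in Cy3 on both Oct4 VP2 arrays at 24 h, 48 h and 120 h. On both Oct4 arrays it did so for 108, 130 and 99, and on both ZHBTc4 arrays for 122, 107 and 98. On neither Oct4 VP2 array at 120 h were 4 members well above background, against 82 in Oct4 and 74 in ZHBTc4. No member (0) was saturated in Cy3 on any array, and saturation in Cy5 was not examined. Only 14 members were well above background on all 6 Oct4 VP2 arrays and on none of the 12 others, whereas 83 were so on all 18 arrays.

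Tests below use ratios (log2, sample over reference) obtained with a background correction that adds an offset (normexp) and loess normalisation within each array. The offset damps the ratios of dim probes. On that scale the 83 members measured on every array kept a median excess between 1.32 and 1.96 across the 6 differences, against 1.48 to 2.52 in the value table. The 43 members that passed the filter on dim probes only through an Oct4 VP2 group had medians of 0.32 to 0.43, against 2.04 to 2.83 in the value table. The sign held for nearly all members: the loess difference was above 0 in 189 to 192 of the 192, depending on the comparison. Its size did not, and the rule applied to loess ratios gave 79 probes, 74 of them among the 192. Without the offset, a setting added after the values were seen, it gave 122 probes, of which 111 were members.

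**Figure D1:**
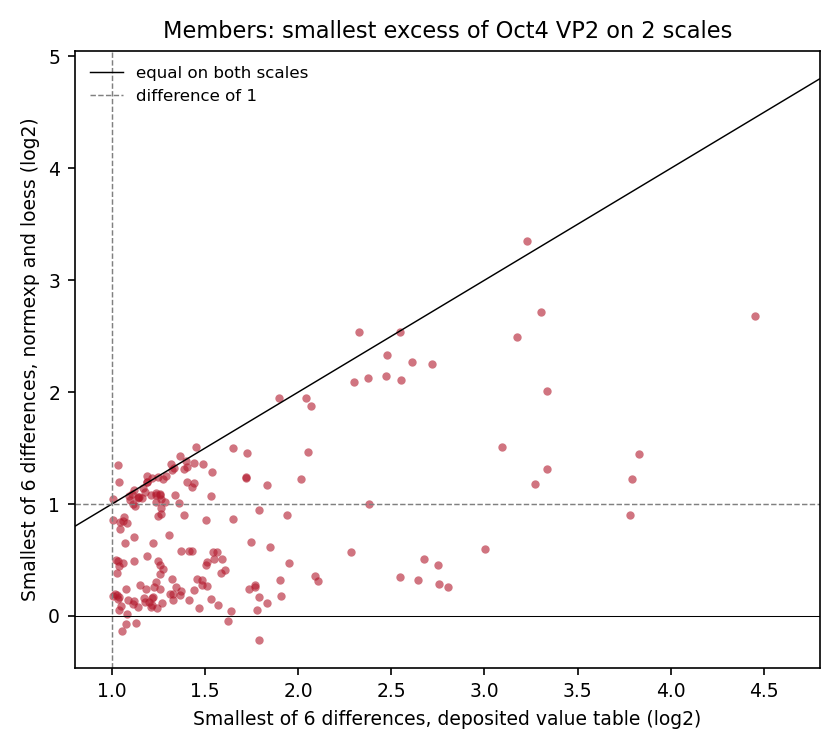
Each point is 1 of the 192 members, with the smallest of its 6 differences (Oct4 VP2 minus Oct4 or ZHBTc4, log2) in the deposited value table on the horizontal axis and after normexp and loess on the vertical axis. The solid line marks equal values and the dashed lines a difference of 1. A band of members follows the line, and many others fall below 1 on the loess scale.

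The excess came from the Cy3 channel, which holds the cells' RNA. Over the 6 comparisons the members' median difference was 1.08 to 1.34 in Cy3 and 0.016 to 0.078 in Cy5, the channel of the reference. Replicates of Oct4 VP2 also varied more for members than for other probes. The median absolute difference between the 2 Oct4 VP2 arrays was 0.251 at 24 h, 0.219 at 48 h and 0.320 at 120 h for members, and 0.146, 0.119 and 0.132 for all probes tested. In Oct4 with LIF it was 0.208 for members, near the Oct4 VP2 value at 48 h, and 0.151 for all probes. ZHBTc4 with LIF had 0.0667 and 0.0585, and in both companion lines without LIF the members' values of 0.113 to 0.162 lay near those of all probes, 0.118 to 0.172.

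Set against the mean of the ZHBTc4 cultures with LIF, the median member on the Oct4 VP2 arrays was higher by 0.86 and 1.09 (24 h), 0.87 and 1.04 (48 h), and 0.46 and 0.80 (120 h). On the Oct4 arrays it stood at -0.09 and -0.12, -0.23 and -0.23, and -0.33 and -0.30 at these times. The ZHBTc4 arrays gave -0.20 and -0.24 after 48 h without LIF, then -0.30 and -0.34 after 120 h. Every Oct4 VP2 array lay above all 12 others, and in all 3 lines the lowest medians were those at 120 h.

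**Figure D2:**
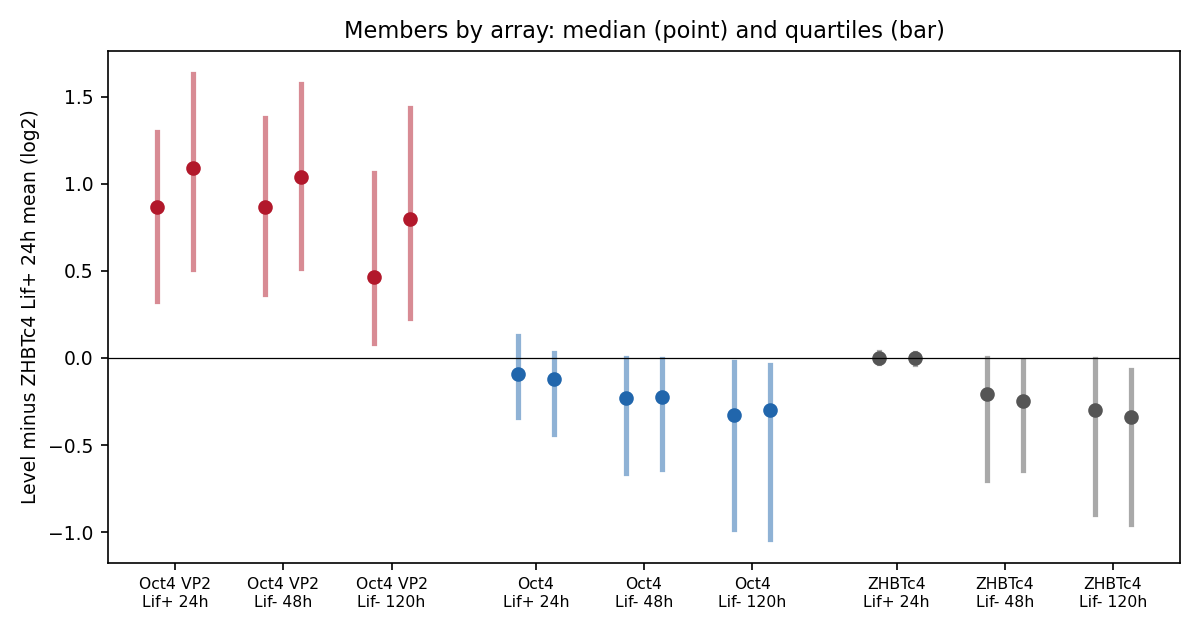
Points give the median and bars the quartiles, over the 188 members that were tested, of the loess log2 ratio on each of the 18 arrays minus the mean of the 2 ZHBTc4 arrays with LIF. The 6 Oct4 VP2 arrays lie between 0.46 and 1.09, and all 12 others at or below about 0.

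The arrays were scanned in 2 sessions. The first held 12 arrays: all 6 of Oct4 VP2, the 4 Oct4 arrays taken without LIF, and the ZHBTc4 arrays numbered replicate 1 at 48 h and 120 h. The second held the remaining 6. With LIF, therefore, every Oct4 VP2 array was in the first session and every other array in the second. Only the ZHBTc4 groups at 48 h and 120 h span both, and there the session goes with the replicate number. A session block sized from them thus cannot tell a session from a difference between replicates. With this block the members' median loess excess with LIF was 1.1 over Oct4 (1.11 without the block). Over ZHBTc4 it was 0.99 (1.02 without the block). Without LIF, the arrays of the first session alone gave a difference of at least 1 over Oct4 in all 192 members at both times, which is the original comparison. Over the single ZHBTc4 array of that session it was at least 1 in 189 members at 48 h (median 2.50) and in 184 at 120 h (median 2.26). The rule with these arrays selected 186 probes, 181 of them among the 192. Since the members were chosen on means that hold these same arrays, the counts and medians describe the choice and support nothing about the session.

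The arrays lay on 5 slides. Oct4 VP2 at 24 h and 48 h shared a slide, while at 120 h it was on another, and Oct4 was on a different slide at each time. ZHBTc4 with LIF had a slide of its own. A change by 120 h in any line therefore cannot be told apart from a difference between slides. The same holds for a change by 48 h in Oct4 and in ZHBTc4. With the slide as a random block (correlation 0.165), 40 members were called at 120 h in Oct4 VP2, 37 in Oct4 and 40 in ZHBTc4, and no named member lost its call. Such a block cannot separate slide from time where the groups lie on different slides, so the kept calls say nothing about the slides. The shares of all probes called with this block are not given.

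How the members changed within each line once LIF was withdrawn is a measure the rule did not use directly. It did limit what could be seen, since a probe that rose in Oct4 or ZHBTc4 without staying 1 below Oct4 VP2 was not selected. Calls are from limma, fitted over 31727 probes, each well above background on both arrays in at least 1 group, with a Benjamini-Hochberg adjusted p under 0.05 over all of them and at least a 2-fold difference. Of the 192 members, 188 entered this test and 4 did not. Comparisons that start from the same arrays with LIF are not independent of each other. In Oct4 the arrays with and without LIF also differ in scan session and in the labelled integration, and the part of the integration cannot be told apart from that of LIF. With the session as a block, sized as above, 34 Oct4 members were called at 120 h and 9 at 48 h. The shares of all probes called with that block are not given, so nothing is read from these counts.

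By 120 h without LIF, members fell more often than they rose in every line. In Oct4 VP2 cells 33 members fell and 9 rose, and the median change of members was -0.25, against -0.02 for all probes tested. Those counts are 17.6% and 4.79% of the members, beside a background of 1.83% lower and 2.81% higher. In Oct4 cells 33 fell and 2 rose, with a background of 5.54% lower and 6.93% higher, and the members' median was -0.13, against 0.04 for all probes. In ZHBTc4 cells 41 fell and none (0) rose, with a background of 6.56% lower and 7.51% higher, and a median of -0.29, against -0.01. With the scanner software's processed signals, which have no offset, 79 fell and 6 rose in Oct4 and 80 fell and 7 rose in ZHBTc4. With centring on the array median, 26 fell and 7 rose in Oct4 and 25 fell and 2 rose in ZHBTc4. The shares of all probes called are not given for these settings, here or below. Their counts therefore show only how far the calls depend on the scaling. The 43 members that passed the filter only through an Oct4 VP2 group did not reach that level on both arrays of any other group, so a change in those lines has only a bound.

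At 48 h the changes were fewer. Oct4 VP2 had 7 members called lower and 3 higher, 3.72% and 1.60% of members, against backgrounds of 0.851% and 0.946%. Oct4 had 17 lower and 0 higher (backgrounds 1.36% and 1.4%), and ZHBTc4 23 lower and 0 higher (2.37% and 1.87%). Only the Oct4 VP2 comparison at 48 h lay within a slide, so the lines' counts cannot be compared apart from the slides. Where limma called no member higher, the members higher at an unadjusted p under 0.05 numbered 3 in Oct4 and 3 in ZHBTc4 at 48 h, and 5 in ZHBTc4 at 120 h. The counts in both companion lines rested in part on single arrays. Without replicate 1 of Oct4 at 48 h the Oct4 count was 11 and without replicate 1 of Oct4 with LIF it was 9, while the ZHBTc4 count was 13 once replicate 1 of ZHBTc4 at 48 h was left out. With the scanner software's own signals, Oct4 had 7 higher and 29 lower, and with centring on the array median 1 higher and 9 lower. ZHBTc4 had 1 higher and 52 lower with the scanner software's signals, and 0 higher and 12 lower with that centring.

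**Figure D3:**
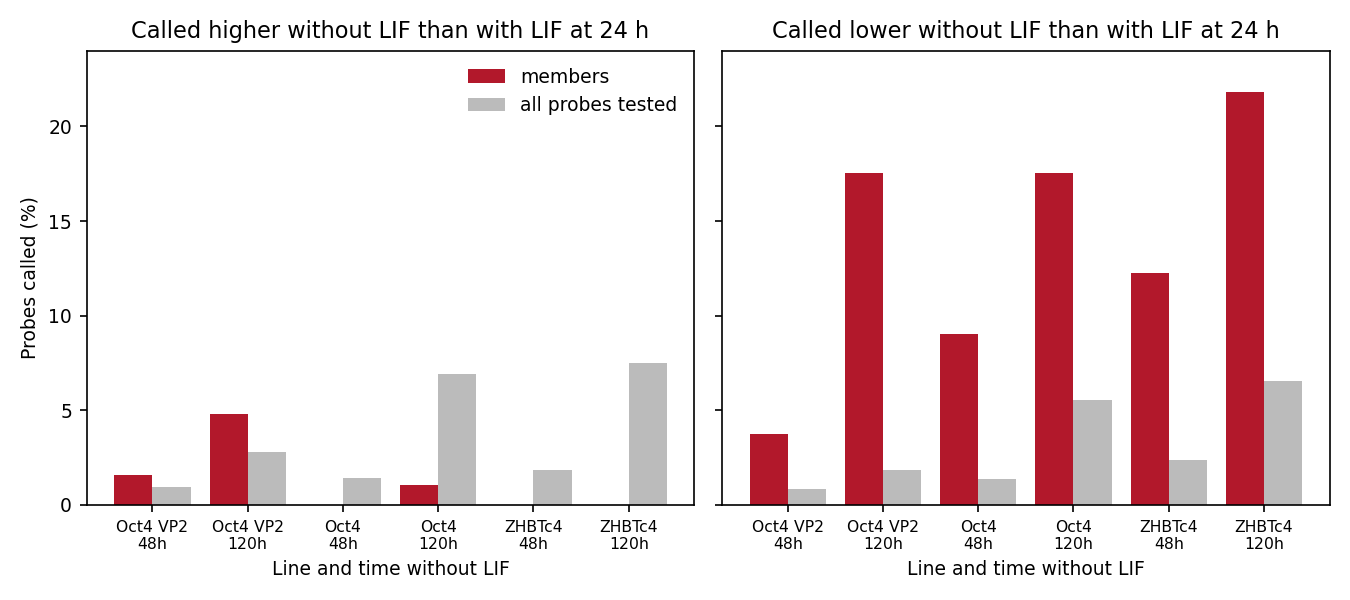
Bars give the percent of probes called higher (left) or lower (right) in each line at 48 h and 120 h without LIF than at 24 h with LIF, for the 188 members tested and for all 31727 probes tested. For members the tallest bars are those for lower calls at 120 h, 17.6% in Oct4 VP2, 17.6% in Oct4 and 21.8% in ZHBTc4.

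Put together over the 3 lines at 120 h, 119 members had no call in any of them, 63.3% of the members against 79.4% of all probes tested. A fall in all 3 lines was called for 16 members, 8.51%, against 0.637% of all probes. No member (0) rose in all 3 lines, and only 0.974% of all probes did, so that count is near the background. Another 11 members fell in Oct4 and ZHBTc4 with no call in Oct4 VP2, 5.85% against 2.92% of all probes. In Oct4 VP2 alone, 11 fell, 5.85% against 0.835%, and 9 rose, 4.79% against 1.18%. The members tested include the 43 that passed the filter only through an Oct4 VP2 group, whose falls elsewhere have only a bound. The rule also limited rises in the other lines. The shares of patterns that set Oct4 VP2 apart are therefore in part built into the choice. For the 16 that fell everywhere, the smaller of the 2 loess gaps between Oct4 VP2 and another line had a median of 1.41 at 24 h and 2.36 at 120 h. For the 11 that fell in Oct4 VP2 alone it was 1.83 and 0.61, and for the 9 that rose there alone 0.84 and 2.20. In these 11 and these 9 the narrower or wider gap at 120 h largely follows from how they were grouped, so nothing is read from it.

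As a mirror image, 123 probes were at least 1 lower in Oct4 VP2 in all 6 differences. At 120 h without LIF, 34 of them were called higher in Oct4 VP2 cells, 74 in Oct4 cells and 79 in ZHBTc4 cells, which are 27.6%, 60.2% and 64.2% of the 123. The backgrounds of higher calls were 2.81%, 6.93% and 7.51%. In each line 2 of the 123 (1.63%) were called lower. At 120 h the members called mostly fell, and the probes called among these 123 mostly rose, in each of the 3 lines. The rule limited rises of members in Oct4 and ZHBTc4. Its mirror limited falls of the 123 probes in those lines, so the opposite directions are in part built into the choice.

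The member with the largest excess, Z00043435-1, fell in Oct4 VP2 cells by 120 h yet stayed far above the others. Its log2 ratios there were 0.54 and 0.31 with LIF at 24 h, -0.15 and -0.55 at 48 h, and -1.51 and -2.44 at 120 h. Oct4 cells gave -4.98 and -4.83, -5.07 and -5.21, and -4.60 and -4.72. ZHBTc4 cells gave -3.88 and -3.97, -4.49 and -4.49, and -4.89 and -4.92. All 6 Oct4 VP2 arrays lay above the 12 others, and the normalised Cy3 signal was 39.7-fold above Oct4 at 24 h and 7.33-fold at 120 h. The 120 h change was -2.40 ± 0.22 (SE; n = 2 arrays a group) in Oct4 VP2 (limma, adjusted p = 3.0e-05), 0.25 ± 0.22 in Oct4 (adjusted p = 0.40) and -0.98 ± 0.22 in ZHBTc4 (adjusted p = 0.0031, under 2-fold).

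Z00056842-1, next in size of excess, moved in the same way. Oct4 VP2 cells gave 1.40 and 1.12 at 24 h, 0.87 and 0.45 at 48 h, then -0.30 and -1.0 at 120 h. The companion line Oct4 ranged between -2.71 and -1.99 and the ZHBTc4 arrays between -2.67 and -2.09 at all times. In Oct4 VP2 cells its 120 h change was -1.91 ± 0.22 (limma, adjusted p = 0.00011), and no change was called in the others. Both of these probes were near the background signal in Oct4 and ZHBTc4, where Z00056842-1 was well above it on only 1 of the 2 arrays in Oct4 at 24 h and in ZHBTc4 at 48 h and 120 h.

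The 9 members that rose at 120 h in Oct4 VP2 cells changed by 1.16 to 1.85. Z00012627-1 had -0.89 and -0.67 at 24 h, 0.11 and 0.78 at 48 h, and 0.22 and 1.91 at 120 h in Oct4 VP2 cells, a change of 1.85 ± 0.39 (limma, adjusted p = 0.0051). Its replicates at 120 h lay far apart, and the change was 1.00 without replicate 2 at 120 h and 2.69 without replicate 1, past the threshold both times. In Oct4 it stayed between -2.08 and -1.46, and in ZHBTc4 between -2.29 and -1.33.

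For Z00025537-1 the rise was as clear on both arrays. It had 0.21 and 0.39 at 24 h, 1.09 and 1.36 at 48 h, and 1.84 and 2.08 at 120 h in Oct4 VP2 cells, a change of 1.66 ± 0.13 at 120 h (adjusted p = 7.8e-06, limma). All arrays of the other lines lay between about 0 and 0.38, mostly at background level. With Oct4 not well above background at 120 h, the Cy3 signal of Oct4 VP2 was at least 4.66-fold higher than in Oct4. At 24 h it was at least 1.1-fold higher, so that the loess scale shows hardly any excess with LIF, where the value table has 1.36.

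Among the 33 members that fell in Oct4 VP2 cells, changes at 120 h ran from -1.02 to -3.13. Z00015281-1 fell most, by 3.13 ± 0.18 on the log2 scale (limma, adjusted p = 2.2e-06), and its arrays gave -0.01 and 0.15 at 24 h, -2.31 and -2.28 at 48 h, and -2.92 and -3.21 at 120 h. It also fell in Oct4, by 1.92 ± 0.18 (adjusted p = 4.8e-06), and in ZHBTc4, by 2.56 ± 0.18 (adjusted p = 4.8e-07). Most of each fall was reached by 48 h.

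Z00023052-1 fell by 2.74 ± 0.24 in Oct4 VP2 cells (limma, adjusted p = 1.9e-05), with 1.34 and 1.46 at 24 h, -1.45 and -1.24 at 48 h, and -1.44 and -1.25 at 120 h. It reached its low level by 48 h. At 120 h it was near background in every line, with -1.14 and -1.41 in Oct4 and -1.39 and -1.80 in ZHBTc4, and the arrays of the 3 lines overlapped. Its excess at 120 h in the value table thus rests on dim signals: in Cy3 it was at least 1.26-fold above Oct4.

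Both members that rose in Oct4 cells at 120 h, Z00026658-1 and Z00018488-1, stayed below their level in Oct4 VP2 cells. Z00026658-1 had -3.61 and -3.19 at 24 h, -2.77 and -3.64 at 48 h and -1.41 and -1.77 at 120 h in Oct4, a change of 1.81 ± 0.27 (limma, adjusted p = 0.00014). In Oct4 VP2 cells it had -0.67 and -0.12 at 120 h, and in ZHBTc4 -2.54 and -2.45. Z00018488-1 changed by 1.43 ± 0.28 in Oct4 (limma, adjusted p = 0.0012). No change was called for either probe in the other lines.

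The largest falls in Oct4 were those of Z00070258-1 and Z00074503-1. Z00070258-1 was one of the probes brightest against the reference and barely moved in Oct4 VP2 cells. It had 5.76 and 5.40 at 24 h, 4.99 and 4.86 at 48 h, and 4.86 and 5.26 at 120 h in that line. Oct4 cells gave 4.40 and 4.09, then 1.66 and 1.69, then 0.27 and -1.10, and ZHBTc4 cells 4.19 and 4.21, then 1.52 and 2.47, then 0.70 and 1.57. At 24 h the group means were 5.58, 4.25 and 4.2 in Oct4 VP2, Oct4 and ZHBTc4, and at 120 h every array of the other lines was more than 3 lower than either Oct4 VP2 array. The change was -0.52 ± 0.40 in Oct4 VP2 (limma, adjusted p = 0.38), -4.66 ± 0.40 in Oct4 (adjusted p = 2.7e-06) and -3.07 ± 0.40 in ZHBTc4 (adjusted p = 5.0e-05).

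Z00074503-1 was much weaker in all these cells than in the reference and fell in each line. At 120 h it had -5.21 and -4.51 in Oct4 VP2 cells, -8.18 and -9.47 in Oct4 cells and -9.01 and -9.08 in ZHBTc4 cells. The change was -2.03 ± 0.45 in Oct4 VP2 (limma, adjusted p = 0.0062), -3.90 ± 0.45 in Oct4 (adjusted p = 2.2e-05) and -2.66 ± 0.45 in ZHBTc4 (adjusted p = 0.00037).

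In ZHBTc4 the largest falls were those of Z00027744-1 and Z00016667-1. Z00027744-1 changed by -2.03 ± 0.34 in Oct4 VP2, -2.10 ± 0.34 in Oct4 and -4.09 ± 0.34 in ZHBTc4, all called by limma, with adjusted p of 0.0011, 0.00028 and 1.5e-06. In Oct4 VP2 cells it had 0.67 and 1.67 at 24 h, 1.72 and 1.92 at 48 h and -1.32 and -0.39 at 120 h, so there it dropped only after 48 h. In ZHBTc4 cells it was at -0.21 and -0.21, then already at -3.15 and -2.60 at 48 h, then at -4.30 and -4.31.

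Z00016667-1 had 2.60 and 2.95 at 24 h, 2.18 and 2.48 at 48 h and 1.33 and 2.11 at 120 h in Oct4 VP2 cells. Oct4 cells gave 0.63 and 0.31, -0.28 and -0.21, and -2.09 and -1.57. ZHBTc4 cells gave 1.29 and 1.39, 0.10 and 0.30, and -2.52 and -2.45. It fell in all 3 lines, by 1.05 ± 0.23 in Oct4 VP2 (limma, adjusted p = 0.0062), 2.3 ± 0.23 in Oct4 (adjusted p = 8.5e-06) and 3.83 ± 0.23 in ZHBTc4 (adjusted p = 1.8e-07).

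**Figure D4:**
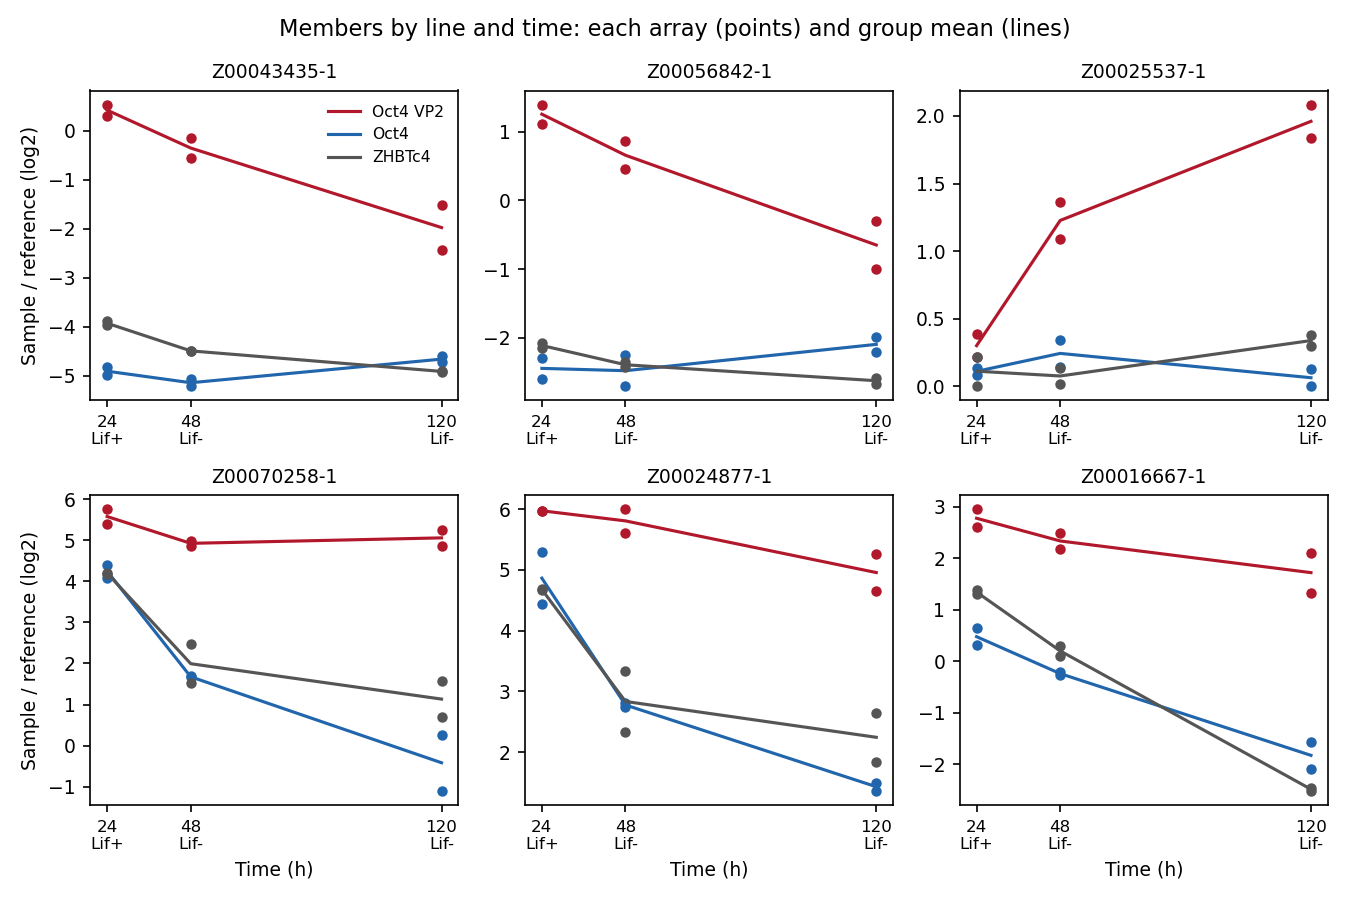
Log2 ratio of sample over reference (loess) at 24 h with LIF and at 48 h and 120 h without it for 6 members, with each array as a point and the mean of 2 arrays as a line. Z00043435-1 and Z00056842-1 fall in Oct4 VP2 cells and Z00025537-1 rises there, while Z00070258-1, Z00024877-1 and Z00016667-1 stay higher in Oct4 VP2 cells as both other lines fall.

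Whether the change over time itself differed between lines was tested as a difference of changes at 120 h. It equals the difference between 2 gaps that the rule both held above 1, and the rule did not fix its sign. Against Oct4, 28 members were called, 19 with a more positive change in Oct4 VP2 and 9 with a more negative one (10.1% and 4.79% of members). The background was 5.27% and 5.35%, and the median was -0.02 for members and -0.06 for all probes. Against ZHBTc4, 27 were called, 19 more positive and 8 more negative (10.1% and 4.26%), with a background of 5.7% and 5.05% and medians of 0.11 and -0.02. More negative calls were no larger a share of members than of all probes.

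The balance of these calls depends on the scaling. With the scanner software's processed signals 29 members had a more positive change and 6 a more negative one relative to Oct4, while 25 and 0 did relative to ZHBTc4. With centring on the array median in place of loess the split was 10 to 29 for Oct4 and 9 to 17 for ZHBTc4, but there the median of all probes itself lay at -0.49 and -0.38. The members' medians, -0.16 and -0.09, stood above those of all probes under that scaling too. The shares of all probes called are not given for either scaling. These splits therefore show only how far the members' calls depend on it.

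The most positive difference from Oct4 was that of Z00070258-1, 4.14 ± 0.57 (limma, adjusted p = 0.00034), and it was 2.55 ± 0.57 from ZHBTc4 (adjusted p = 0.0059). Centring on the array median gave 2.71 from Oct4 (adjusted p = 0.0038) and 1.56 from ZHBTc4 (adjusted p = 0.052). Z00024877-1 followed against Oct4, with 2.42 ± 0.49 (limma, adjusted p = 0.0036). It had 5.98 and 5.97 at 24 h, 6.0 and 5.61 at 48 h and 4.65 and 5.26 at 120 h in Oct4 VP2 cells. Oct4 cells gave 5.29 and 4.44, 2.74 and 2.81, and 1.5 and 1.36, and ZHBTc4 cells 4.67 and 4.68, 2.33 and 3.34, and 1.84 and 2.64. With the scan session as a block the difference of Z00024877-1 was 1.51 (adjusted p = 0.024). Against ZHBTc4 the most positive was Z00016667-1, with 2.77 ± 0.33 (limma, adjusted p = 0.00012), and 1.82 with centring on the array median (adjusted p = 0.0038).

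The most negative differences were those of members that were dim in the companion lines. Against Oct4 they were -2.64 ± 0.32 for Z00043435-1 (limma, adjusted p = 0.00016) and -2.26 ± 0.31 for Z00056842-1 (adjusted p = 0.00036). Against ZHBTc4 they were -1.80 ± 0.43 for Z00030870-1 (limma, adjusted p = 0.0083) and -1.41 ± 0.32 for Z00043435-1 (adjusted p = 0.0062). Z00030870-1 gave 1.68 and 2.88 at 24 h, 0.61 and 1.31 at 48 h and 0.19 and 0.07 at 120 h in Oct4 VP2 cells, against 0.15 and 0.1, -0.20 and -0.54, and -0.17 and -0.28 in ZHBTc4. It was not well above background on any ZHBTc4 array without LIF, so its change there has only a bound. Both calls against ZHBTc4 were lost with the scanner software's processed signals, where the difference was -0.90 for Z00030870-1 (adjusted p = 0.31) and -0.57 for Z00043435-1 (adjusted p = 0.32). They were lost on the value table too, with the same differences and adjusted p of 0.35 and 0.36. Without replicate 2 of Oct4 VP2 at 120 h the difference of Z00043435-1 from ZHBTc4 was -0.95, under 2-fold, and with centring on the array median it was -2.19 (adjusted p = 0.0047). Without replicate 2 of Oct4 VP2 with LIF the difference of Z00030870-1 was -1.20 (adjusted p = 0.016).

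Between the companion lines, which the rule did not compare, few members differed, though with LIF a larger share of them did than of all probes. The Oct4 arrays with LIF carry another integration label than those without it. A shift of the difference over time cannot be told apart from that label. With LIF, Oct4 was higher than ZHBTc4 in 5 members and lower in 6, 2.66% and 3.19% of members against backgrounds of 0.523% and 1.65%. At 48 h it was higher in 3 and lower in 1, 1.60% and 0.532% of members (backgrounds 0.366% and 0.385%). At 120 h it was higher in 1 and lower in 6, 0.532% and 3.19% of members (backgrounds 1.63% and 2.31%). The scanner software's signals gave 6 higher calls beside 20 lower ones with LIF. They gave 9 of each sort at 48 h, and 5 higher beside 26 lower at 120 h. Centring on the array median gave 8 higher beside 1 lower at 48 h, and 3 higher beside 4 lower at 120 h. Single arrays weighed on these small counts: with LIF 7 members were called without replicate 2 of ZHBTc4. At 48 h there were 1 without replicate 2 of Oct4 and 2 without replicate 2 of ZHBTc4, and at 120 h there were 4 and 3 without the same replicates.

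Z00044113-1 was the member that most favoured ZHBTc4 over Oct4 with LIF. It had 2.21 and 2.40 in Oct4 VP2 cells, -1.46 and -1.07 in Oct4 cells and 1.22 and 1.27 in ZHBTc4 cells at 24 h, a difference of -2.51 ± 0.23 between Oct4 and ZHBTc4 (limma, adjusted p = 8.3e-05). The 3 lines did not overlap. At 120 h the Oct4 VP2 arrays were at 2.18 and 2.21, those of Oct4 at -2.06 and -2.14, and those of ZHBTc4 at -1.04 and -0.18, a difference of -1.49 ± 0.23 between Oct4 and ZHBTc4 (adjusted p = 0.00089, limma). Z00027744-1 was also lower in Oct4 with LIF, by -2.07 ± 0.34 (limma, adjusted p = 0.0023), and not at 120 h (-0.08 ± 0.34, adjusted p = 0.92).

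Z00074470-1 was the member most in favour of Oct4 with LIF, with 0.22 and 0.54 in Oct4 VP2 cells, -0.58 and -0.83 in Oct4 cells and -2.29 and -2.33 in ZHBTc4 cells at 24 h. The difference between Oct4 and ZHBTc4 was 1.61 ± 0.19 (limma, adjusted p = 0.00037), and 2.56 with the scanner software's processed signals (adjusted p = 0.0020). It was 1.22 ± 0.19 at 48 h (adjusted p = 0.0073) and 0.73 ± 0.19 at 120 h, under 2-fold (adjusted p = 0.019). At 120 h it was not well above background on either ZHBTc4 array.

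The composition of the probes was close to that of the table as a whole. The median GC content was 41.7% in members and 43.3% in all probes of the table, with 10th and 90th percentiles of 35.0% and 51.7% in members and 35.0% and 55.0% in all. The polyadenylation hexamer AATAAA was found on the printed strand, the only strand searched, in 14 members (7.29%) and in 7.90% of all probes. Its variant ATTAAA was found in 2 members (1.04%) and in 3.37% of all probes.

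Few members shared sequence with other probes. Of the 192, 7 (3.65%) shared a run of at least 20 bases with another probe of the table, against 1.29% of all probes, and they belonged to 5 groups of such probes. In 4 groups the member stood alone, and the smallest difference of its partner probes lay between -0.93 and 0.54, below the threshold. The fifth group consisted of the 3 members printed above with the run in capitals. Pairs of them had longest shared runs of 22, 20 and 30 bases, so they are not 3 independent observations.

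These 3 probes followed one course. In Oct4 VP2 cells Z00034075-1 had 1.40 and 1.30 at 24 h, 0.41 and 0.42 at 48 h, and -0.86 and -0.86 at 120 h. Oct4 cells gave -1.53 and -0.85, -2.53 and -2.12, and -3.39 and -4.0, and ZHBTc4 cells -2.3 and -2.46, -3.62 and -3.48, and -4.06 and -4.25. The order was Oct4 VP2, then Oct4, then ZHBTc4 at each time, with no overlap of arrays between lines. All 18 arrays were well above background for each of the 3 probes.

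The other pair kept that order of group means. Z00033919-1 had means of 1.17, 0.05 and -1.02 in Oct4 VP2 cells at 24 h, 48 h and 120 h, against -1.32, -2.29 and -3.28 in Oct4 cells and -2.43, -3.39 and -3.82 in ZHBTc4 cells. Z00070676-1 had 1.34, 0.41 and -0.90 in Oct4 VP2 cells, against -1.06, -2.24 and -3.24 in Oct4 cells and -2.13, -3.14 and -3.84 in ZHBTc4 cells. In the value table their smallest differences were 2.55 for Z00034075-1, 2.61 for Z00033919-1 and 2.48 for Z00070676-1.

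All 3 fell in every line by 120 h and are among the 16 members that did so. In Oct4 VP2 cells the falls were 2.21 ± 0.22 for Z00034075-1, 2.19 ± 0.20 for Z00033919-1 and 2.24 ± 0.21 for Z00070676-1 on the log2 scale (limma, adjusted p = 4.2e-05, 2.7e-05 and 3.2e-05). Oct4 cells fell by 2.50, 1.96 and 2.17 and ZHBTc4 cells by 1.78, 1.40 and 1.71. No difference of change between Oct4 VP2 and another line was called for them.

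With LIF, Oct4 exceeded ZHBTc4 by 1.19 ± 0.22 for Z00034075-1, 1.1 ± 0.20 for Z00033919-1 and 1.07 ± 0.21 for Z00070676-1 (limma, adjusted p = 0.0046, 0.0044 and 0.0072). They make up 3 of the 5 members called higher in Oct4 there. Without replicate 2 of Oct4 with LIF the difference of Z00034075-1 was 0.85, under 2-fold, and without replicate 2 of ZHBTc4 with LIF it was 1.1 (adjusted p = 0.053). At 120 h, where the Oct4 arrays carry another integration label, the differences were 0.46, 0.54 and 0.60, with no call.

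**Figure D5:**
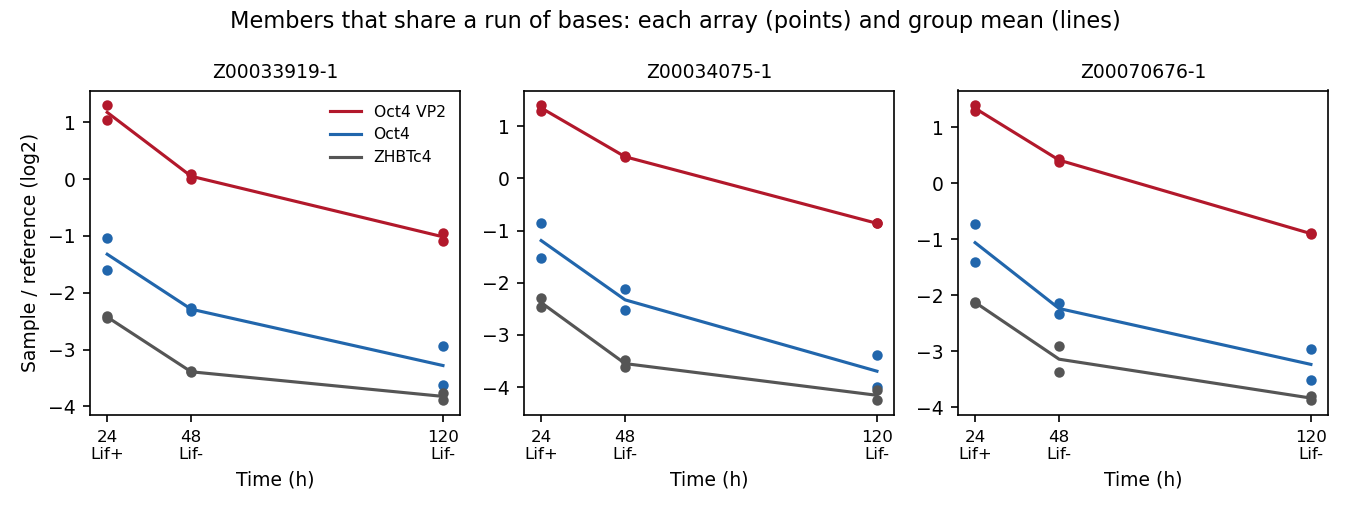
Log2 ratio of sample over reference (loess) at 24 h with LIF and at 48 h and 120 h without it for the 3 members that share a run of 20 bases, with each array as a point and the mean of 2 arrays as a line. In each panel all lines fall, and the mean of Oct4 VP2 stays at least 2.26 above both other means.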

How the data were processed

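Per the labels, each target was made from 2.5 μg of total RNA, Cy3 marking the sample and Cy5 the reference. Agilent Feature Extraction 9.5.1.1 measured the spots, per the file headers, and the deposited scanner output holds each spot's intensity (mean signal, local background, processed signal) and a log10 ratio. The authors' value table uses log10 too. After centring each probe, 100% of the table's entries agreed within 0.001 with the processed-signal ratio (sample to reference) on all arrays. This settles direction and scale. A constant per probe stays unknown and cancels in differences. Members were selected after turning the deposited table to log2.

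For tests, limma 3.58.1 (R 4.3.3) corrected the mean signals with normexp (offset 50) and normalised each array by loess. Control spots and those with an outlier flag had weight 0. Spots of a probe were averaged (42006 probes). The filter left 31727. One mean per group was fitted over all 18 arrays (9 residual and 3.69 prior degrees of freedom), and 11 comparisons were drawn. Log2 ratios are sample over reference. A fold in Cy3 is "at least" where the other group was well above background on neither array. It then uses the lowest well-measured signal of each array. Folds in Cy3 may carry dye bias. The fit was tested on simulated data.

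Between 62.8% and 75.2% of probes were well above background in Cy3 per array, and array pairs correlated with r from 0.743 to 0.996. The number of arrays, 2 a group, limits the precision. The members, and the lists of marker genes that could not be applied without gene names, were chosen with earlier results of these data known. The rule for naming was to print, without gene names, at most 2 probes in each direction of a comparison: those with the largest excess, and those with the largest called changes.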

Additional observations from a re-analysis of the deposited data

Results flagged for a closer look

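The difference between lines in the change from 24 h with LIF to 120 h without it was tested as an interaction and drew attention in 2 comparisons. It was called for 28 members against Oct4, 10.1% of members more positive and 4.79% more negative, with backgrounds of 5.27% and 5.35%. Against ZHBTc4 it was called for 27, 10.1% and 4.26% of members, with backgrounds of 5.7% and 5.05%. Among single members against Oct4, it was 4.14 for Z00070258-1, 2.42 for Z00024877-1, -2.64 for Z00043435-1 and -2.26 for Z00056842-1, on the log2 scale. Against ZHBTc4, it was 2.77 for Z00016667-1, 2.55 for Z00070258-1, -1.80 for Z00030870-1 and -1.41 for Z00043435-1. Positive values mean a more positive change in Oct4 VP2. The Oct4 arrays with LIF were scanned in another session than the rest of that line and carry another integration label. Both ZHBTc4 arrays with LIF were in the second session, which also held replicate 2 of ZHBTc4 at 48 h and 120 h. Replicate 1 of ZHBTc4 at these times and all Oct4 VP2 arrays were in the first. The session block, sized from ZHBTc4 alone, cannot tell a session from a difference between replicates. The part of the session in these differences was therefore not tested. With that block, 20 members were called against Oct4 and 24 against ZHBTc4. The shares of all probes called with it are not given, so nothing is read from these 2 counts.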

How the results depend on the processing

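The number of members was 192 with the scanner software's processed signals too, 79 on loess ratios, 106 on Cy3 alone, 122 without the offset, 289 at a threshold of 0.8, 74 at 1.5, and 76 when every array had to stand apart by 1. Leaving out single arrays gave 173 to 210. Counts of members called moved by more than 1.5 times as follows. With processed signals they were 36 for Oct4 at 48 h, 85 for Oct4 at 120 h, 53 and 87 for ZHBTc4, and 26, 18 and 31 for Oct4 minus ZHBTc4 at 24 h, 48 h and 120 h. On the value table they were 36 and 82 for Oct4, 51 and 85 for ZHBTc4, and 23, 15 and 30 for Oct4 minus ZHBTc4. With centring on the array median they were 10 for Oct4 at 48 h, 12 and 27 for ZHBTc4 at 48 h and 120 h, and 9 for Oct4 minus ZHBTc4 at 48 h. With the scan session as a block they were 9 for Oct4 at 48 h and 4 for Oct4 minus ZHBTc4 at 120 h. With the filter at all 18 arrays, which leaves fewer probes, they were 4 and 27 for Oct4 VP2 at 48 h and 120 h. Why the other counts moved was not tested. Leaving out single arrays gave 9 to 12 and 38 to 51 for Oct4 VP2, 9 to 21 and 34 to 44 for Oct4, 13 to 26 and 36 to 41 for ZHBTc4, 7 to 13, 1 to 5 and 3 to 9 for Oct4 minus ZHBTc4, and 22 to 32 and 18 to 36 for the differences of change. The balance of more positive and more negative differences of change turned with centring on the array median, as given above. No called value of a named member changed sign under these alternatives, where 625 such values kept their call and 8, given with the members, lost it. Replicate numbers are shared between groups, but differences between replicates correlated from -0.226 to 0.703 within a line and from -0.251 to 0.198 between lines, so the numbers do not pair arrays between lines. Within Oct4 VP2 all 3 correlations lay between 0.291 and 0.520, so there same-numbered arrays deviated together across times. In Oct4 (-0.226 to 0.221) and ZHBTc4 (-0.037 to 0.703) they do not all exceed 0. A replicate block within each line, added after the values were seen, gave 13 and 43 for Oct4 VP2, 18 and 36 for Oct4, 24 and 43 for ZHBTc4, 17, 7 and 8 for Oct4 minus ZHBTc4, and 35 and 34 for the differences of change. With the replicate number as a block over all lines the counts were 10 and 42 for Oct4 VP2, 18 and 35 for Oct4, 23 and 41 for ZHBTc4, 14, 5 and 7 for Oct4 minus ZHBTc4, and 31 and 27 for the differences of change. Dim signal limits the size of differences for members near background in the companion lines.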
